A study of Mus musculus with 18 samples.

Results

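Fatty acid oxidation and peroxisome enzymes were followed in whole mouse kidneys after ischemia and reperfusion (I/R) injury. The group was a fixed list of 40 genes, matched by symbol to the Ensembl identifiers of the count tables (GRCm38), and all 40 were found among the 45706 genes counted. Of these, 22 code for mitochondrial and 11 for peroxisomal proteins, 4 (Acad11, Eci2, Crat and Acsl1) are described in both organelles or elsewhere, and 3 (Fabp1, Fabp3 and Cd36) serve fatty acid uptake and binding. Kidneys came from Cxcl12 KO (n = 5), Cxcl12 control (n = 3), Myc KO (n = 5) and Myc control mice (n = 5) on a C57BL/6 background, and all were removed 12 h after both renal vessels had been reopened, following 22.5 min of ischemia. All mice were homozygous for the floxed gene of their cohort, Cxcl12 or Myc, and carried Pax8rtTA. The KO mice also carried TetOCre, so that doxycycline switched on the recombinase in tubule cells, and the control mice lacked it. According to the methods of the study, the mice were males of 10 to 12 weeks and littermates, and both KO and control mice drank doxycycline for 14 days followed by 1 week without it. Pax8 drives the transgene in tubule cells only, so that the whole kidney also holds many cells in which neither gene was removed. Uninjured kidneys were not analysed here, and each value describes the injured state.

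The tubule, above all its proximal part, burns fatty acids to fuel transport. Fatty acids enter the cell through proteins such as CD36, travel bound to FABPs, and are activated to acyl-CoA by synthetases. Long chains cross into mitochondria through the carnitine shuttle and are shortened by a dehydrogenase, a hydratase, a second dehydrogenase and a thiolase, while ETF and its dehydrogenase pass the electrons to the respiratory chain. Peroxisomes shorten very long, branched and other special chains with enzymes of their own, and catalase removes the hydrogen peroxide made on the way. The nuclear receptor PPARα, paired with RXR, is a known activator of many of these genes, and MYC is a transcription factor with broad effects on metabolism.

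Reads on genes numbered 12918220 to 29749500 per kidney, and levels are given as CPM, counts scaled to an equal total of reads on genes, after scaling by the TMM method. Unmapped reads made up less than 5% in 6 kidneys, against 5.28% to 6.48% in the other 12, and the sources used here name no sequencing batch. These 6 were 2 Cxcl12 KO, 2 Myc KO, 2 Myc control and 0 Cxcl12 control kidneys. They also had the most reads on genes, 22437067 to 29749500, against at most 18006784 in the other 12. Depth and the share of unmapped reads can therefore not be told apart in this split. Within groups, each of 33 pairs of kidneys showed differences beyond the noise of counting, and p-values measure the spread between these kidneys. In Cxcl12 KO kidneys Cxcl12 was at 32.3 ± 6.07 CPM (SD, n = 5), and their controls had 53.5 ± 7.92 CPM (SD, n = 3), without overlap (log2 fold change -0.73, edgeR adjusted p = 0.094). In Myc KO kidneys Myc was at 31.0 ± 3.95 CPM (SD, n = 5), against 94.9 ± 14.5 CPM (SD, n = 5) in their controls (log2 fold change -1.61, edgeR adjusted p = 8.8e-05). The 12 proximal tubule markers summed to between 4860 and 8160 CPM in each kidney and none was at 0 throughout, whereas the 6 markers of striated muscle summed to at most 12.0 CPM. The 40 genes together took 0.737% to 1.27% of the reads on genes.

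The 40 genes covered a wide range of levels. Levels of genes were compared per kilobase of exon, with the length taken over all annotated exons of a gene. This length can exceed that of the transcript in use, to a degree that may differ between genes, so the order of genes is approximate. The mean over 18 kidneys ran from 0.238 CPM per kb for Cpt1b, the muscle form of carnitine palmitoyltransferase 1. It reached 281 CPM per kb for Acsm2, a medium-chain acyl-CoA synthetase of the proximal tubule. Ehhadh, the bifunctional peroxisomal enzyme, followed with 262 CPM per kb, and Cat, which codes for catalase, with 256 CPM per kb. These 3 lay close together against the spread between kidneys, since Ehhadh differed 5.52-fold between its highest and lowest kidney. The median was 51.7 CPM per kb for the mitochondrial genes, 37.3 CPM per kb for the peroxisomal genes, 20.2 CPM per kb for the 4 genes in neither class and 9.39 CPM per kb for the 3 genes of uptake and binding. Cpt1a, the form of liver and kidney, stood at 73.9 CPM per kb. Both subunits of the ETF, Etfb with 169 and Etfa with 118 CPM per kb, and the dehydrogenase Acadl with 199 CPM per kb were among the highest mitochondrial genes. Hadhb, whose product forms the trifunctional protein together with that of Hadha, stood at 3.57 CPM per kb against 30.4 CPM per kb for Hadha. Of the 50-base stretches in the transcripts of Hadhb, 19.4% were shared with other counted genes, among them Gm13910. Reads that match several places were not counted, and the part of this in the low level of Hadhb was not tested.

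**Figure D1:**
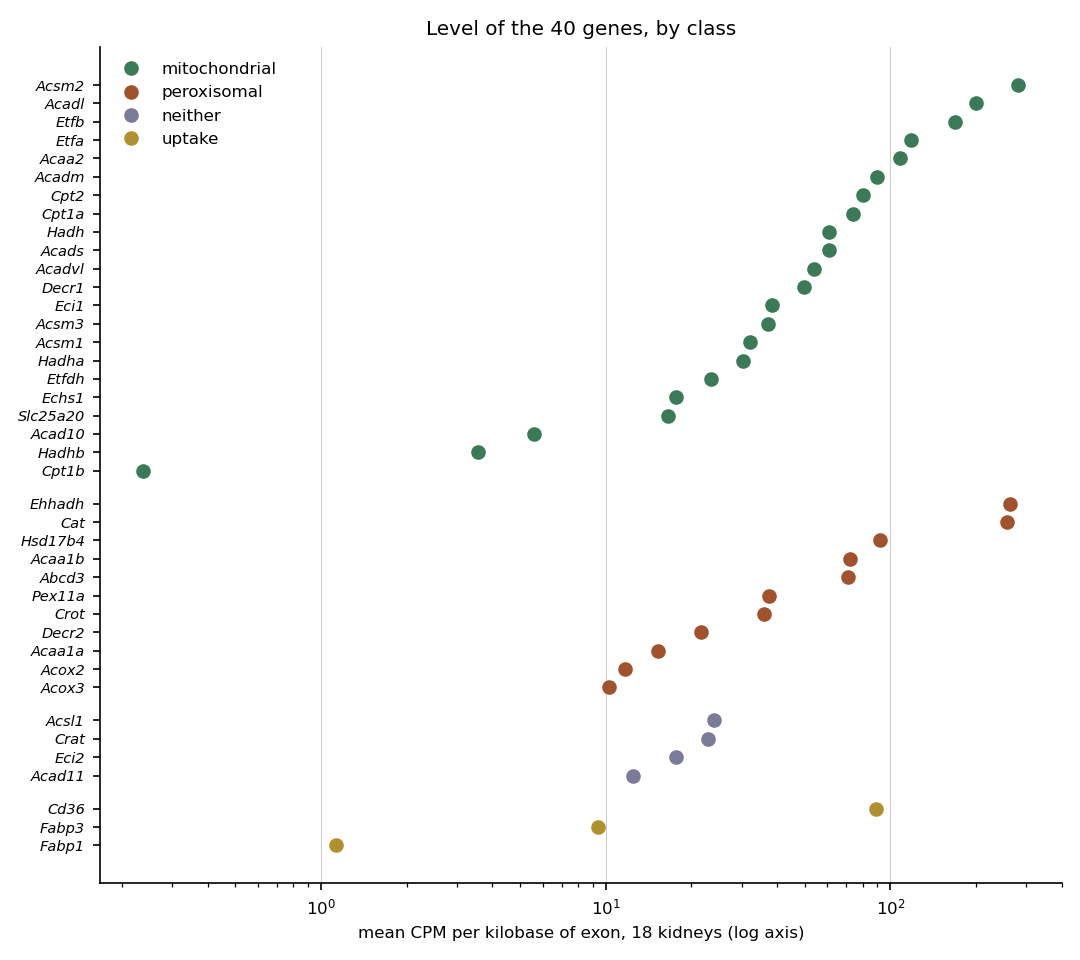
Mean level of each of the 40 genes over 18 kidneys, in CPM per kilobase of exon on a log axis, grouped by class. Acsm2 (281), Ehhadh (262) and Cat (256) stand highest, and Cpt1b (0.238) and Fabp1 (1.13) lowest.

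Promoters were searched for the direct repeat to which PPAR binds with RXR (AGGTCA, any 1 base, AGGTCA again), for its single unit and for the E-box of MYC with MAX (CACGTG), on both strands of the window from 250 bases before to 50 bases after each RefSeq start (GRCm38.p6). For 35 of the 40 genes a promoter was found in the RefSeq set used. Of these, 0 held the full repeat, which was present in 0.0481% of 27025 genes, and 0 held the E-box, which was present in 8.09%. The single unit, which is also part of the full repeat, was found in 8 (Acadm, Acadvl, Acsm1, Cat, Cd36, Cpt1a, Echs1 and Fabp1), and 18.1% of all genes held it. When 1 mismatch in the repeat was allowed, a search added after the data had been seen, 1 of the 35 matched (Fabp1, as tgacctatggcct, beginning 67 bases before the start), against 0.644% of all genes. The upstream stretches of Fabp1, Cat and Acadm are shown for the unit they hold, and those of Pex11a and Etfb because these genes had the smallest p of the peroxisomal genes in the Myc cohort and of the mitochondrial genes in the Cxcl12 cohort, although neither holds the unit. Each runs 5′ to 3′ along the strand of the gene and ends before the annotated transcripts, and capitals mark AGGTCA or its reverse complement TGACCT.
Fabp1 promoter, chr6:71199629-71199826, plus strand: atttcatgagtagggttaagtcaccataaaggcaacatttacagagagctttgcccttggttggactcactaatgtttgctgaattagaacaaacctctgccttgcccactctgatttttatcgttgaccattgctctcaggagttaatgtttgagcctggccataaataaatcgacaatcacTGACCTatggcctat
Cat promoter, chr2:103485161-103485403, minus strand: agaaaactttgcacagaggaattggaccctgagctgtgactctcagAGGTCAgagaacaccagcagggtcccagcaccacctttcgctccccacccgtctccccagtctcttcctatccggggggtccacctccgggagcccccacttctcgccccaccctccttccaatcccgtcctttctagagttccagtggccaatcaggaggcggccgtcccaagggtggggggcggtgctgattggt
Acadm promoter, chr3:153944644-153944893, minus strand: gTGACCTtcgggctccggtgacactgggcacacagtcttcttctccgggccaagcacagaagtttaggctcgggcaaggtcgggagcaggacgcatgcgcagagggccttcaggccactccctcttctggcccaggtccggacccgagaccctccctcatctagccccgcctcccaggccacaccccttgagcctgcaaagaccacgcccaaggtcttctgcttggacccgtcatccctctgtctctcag
Pex11a promoter, chr7:79743132-79743381, minus strand: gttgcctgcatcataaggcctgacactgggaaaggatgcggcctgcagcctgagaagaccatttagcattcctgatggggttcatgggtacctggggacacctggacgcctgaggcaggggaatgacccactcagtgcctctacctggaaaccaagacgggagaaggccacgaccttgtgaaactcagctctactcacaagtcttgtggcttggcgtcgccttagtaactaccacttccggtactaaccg
Etfb promoter, chr7:43443822-43444071, plus strand: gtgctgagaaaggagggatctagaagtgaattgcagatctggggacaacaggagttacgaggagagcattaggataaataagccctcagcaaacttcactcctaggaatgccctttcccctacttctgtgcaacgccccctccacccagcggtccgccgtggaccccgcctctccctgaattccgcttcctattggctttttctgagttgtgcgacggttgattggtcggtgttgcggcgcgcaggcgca
The windows are RefSeq sequence, and a match or its absence describes the letters only.

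In the Cxcl12 cohort most of the 40 genes were somewhat lower in KO kidneys, but none passed the test across all genes. Of the 40 genes tested, 36 had a log2 fold change below 0, and 49.8% of all 15154 genes did. The median was -0.16, which is 10.7% lower, against 0.001 over all genes tested. With an adjusted p under 0.05 from edgeR's quasi-likelihood test, 0 of the 40 genes and 0% of all genes were called. At an unadjusted p under 0.05 there were 7 of the 40 (Etfb, Fabp1, Fabp3, Hadh, Acaa2, Eci1 and Acaa1a), all lower, and 13.0% of all genes. DESeq2 called 2, Fabp1 and Etfb, and 2.34% of all genes. In 3 of the 40 genes (Etfb, Fabp1 and Fabp3) every KO kidney was lower than every control, which was so for 4.72% of all genes. In none of the 40 did all KO kidneys lie above all controls, which was so for 4.96%. The proximal tubule markers moved alongside: 11 of 12 were lower in KO kidneys, with a median log2 fold change of -0.21 and a lowest adjusted p of 0.062. Their summed level was 5700 to 6630 CPM in KO and 6870 to 8160 CPM in control kidneys. The marker Slc27a2 is also counted among the 31 further peroxisomal enzymes and transporters below. Of the sum it made up 1680, 1300, 1280, 1740 and 1610 CPM in KO and 1540, 1490 and 1970 CPM in control kidneys. All 6 markers of the loop of Henle and distal convoluted tubule were lower too, with a median of -0.24. Their sum was 2600 to 4880 CPM in KO and 3680 to 4430 CPM in control kidneys. Of 6 collecting duct markers, 3 were lower. In whole kidneys, fewer tubule cells and less RNA per cell cannot be told apart. The 6 markers of injured tubule were all higher in KO kidneys, with a median log2 fold change of 0.61 and a sum of 14100 to 22100 CPM against 11300 to 12800 CPM. The neutrophil markers summed to 25.1 to 114 CPM against 15.9 to 23.1 CPM. None of the markers in these lists was at 0 in every kidney, and their part in the levels of the 40 genes was not tested.

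**Figure D2:**
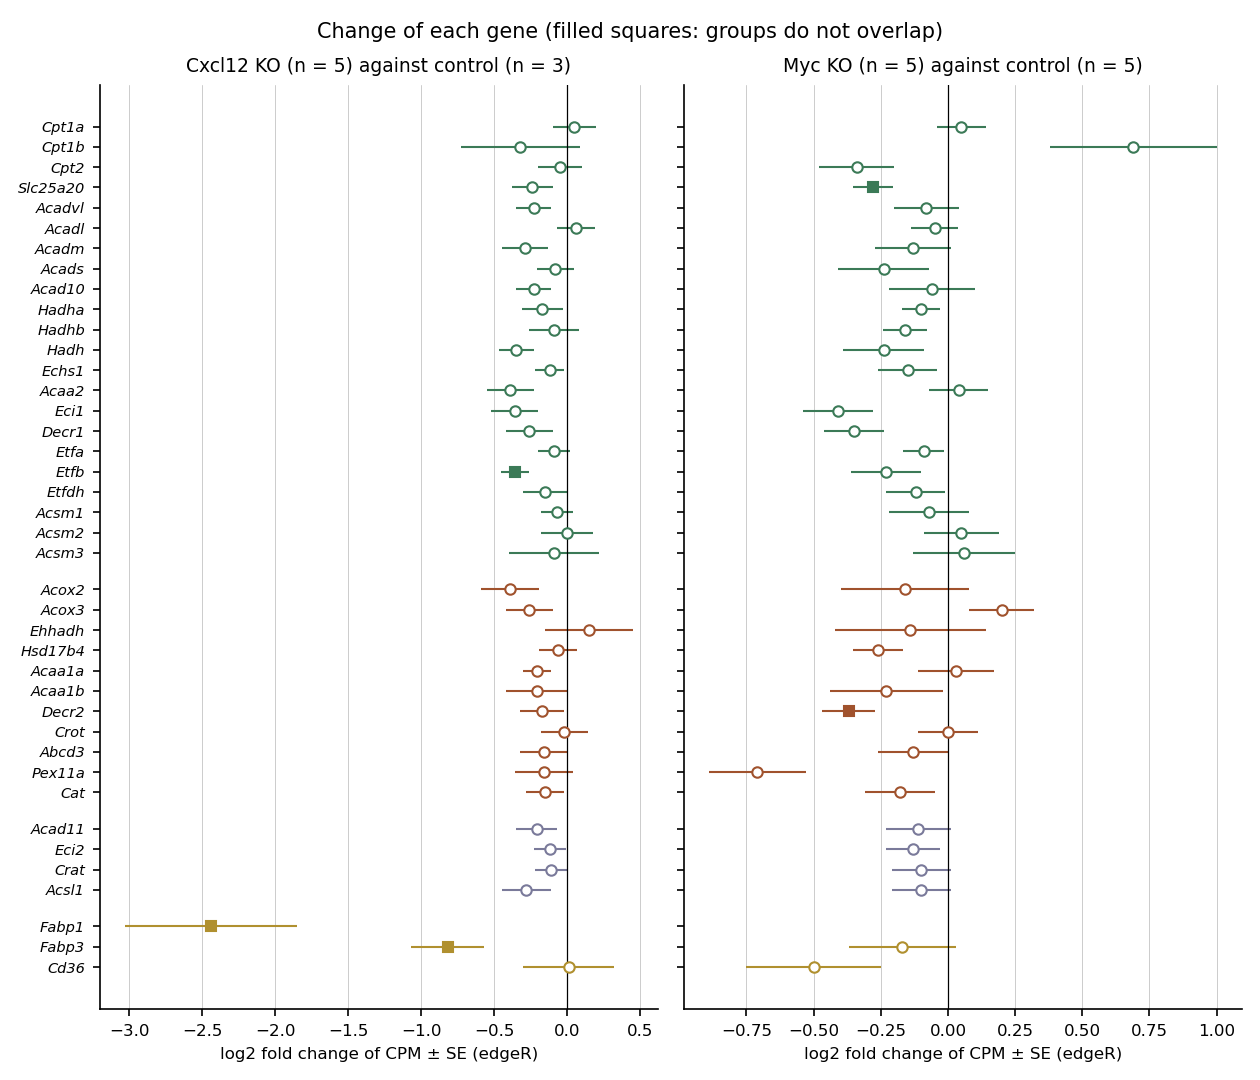
Log2 fold change of each of the 40 genes with its standard error from edgeR, KO against control, in the Cxcl12 cohort (left) and the Myc cohort (right). The axes differ in scale, colours mark the classes, and filled squares mark genes whose KO and control kidneys did not overlap, which were Etfb, Fabp1 and Fabp3 on the left and Slc25a20 and Decr2 on the right, where Fabp1 was not tested.

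Of the 4 genes of the carnitine shuttle 3 were lower in the Cxcl12 cohort, with a median of -0.15. Cpt1a had a log2 fold change of 0.05, Cpt2 of -0.05 and Cpt1b of -0.32 with a standard error of 0.41, and Slc25a20, the carnitine-acylcarnitine translocase between them, had -0.24 (edgeR adjusted p = 0.50). All 7 of the other mitochondrial enzymes of the spiral were lower, from -0.09 for Hadhb to -0.39 for the thiolase Acaa2. Hadh, the short-chain hydroxyacyl-CoA dehydrogenase, had a mean of 295 ± 29.5 CPM (SD, n = 5) in KO kidneys, and of 375 ± 54.8 CPM (SD, n = 3) in controls (edgeR log2 fold change -0.35 ± 0.12 SE, adjusted p = 0.26). Of the 5 acyl-CoA dehydrogenases, 4 were lower, with a median of -0.23, and Acadl, the long-chain form, stood apart with 0.06. The 3 medium-chain synthetases Acsm1, Acsm2 and Acsm3 lay between -0.09 and 0.

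Etfb, the beta subunit of the flavoprotein that takes electrons from the acyl-CoA dehydrogenases, lies on chromosome 7 from 43444083 to 43457800. It was at 192, 178, 190, 208 and 203 CPM in the 5 Cxcl12 KO kidneys and at 269, 217 and 257 CPM in the 3 controls. The KO kidneys lay within a narrow band just under the lowest control. The log2 fold change was -0.36 ± 0.096 (SE; edgeR adjusted p = 0.17 and DESeq2 adjusted p = 0.021). Its partner Etfa had -0.09, and Etfdh, which hands the electrons on, had -0.15. Etfb in the Myc cohort was at 206, 185, 146, 165 and 136 CPM in KO and at 168, 207, 169, 237 and 203 CPM in control kidneys, and here the groups overlapped (log2 fold change -0.23, edgeR adjusted p = 0.32).

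Fabp1, the liver-type fatty acid binding protein, lies on chromosome 6 from 71199827 to 71205023, and its upstream stretch is printed above. It had 15, 9, 1, 8 and 3 reads in the 5 Cxcl12 KO kidneys and 73, 17 and 17 reads in the controls. These are 0.66, 0.341, 0.0778, 0.444 and 0.186 CPM against 4.04, 0.915 and 1.02 CPM. The groups did not overlap, but control 1 stood far above the other 2 controls. The log2 fold change was -2.44 ± 0.59 (SE; edgeR adjusted p = 0.13 and DESeq2 adjusted p = 0.013), and it was -1.40 without control 1 (edgeR adjusted p = 0.55). Fabp1 did not pass the filter on low counts in the Myc cohort and was not tested there, with 1 to 11 reads in KO and 5 to 14 reads in control kidneys.

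Fabp3, the heart-type binding protein found in muscle and in distal tubule, lies on chromosome 4 from 130308595 to 130315463. It was at 5.63, 5.95, 8.87, 3.33 and 7.07 CPM in Cxcl12 KO and at 11, 9.15 and 12.3 CPM in control kidneys. All KO kidneys lay below the controls, and the log2 fold change was -0.82 ± 0.25 (SE; edgeR adjusted p = 0.22). Markers of striated muscle stood alongside. The 6 markers summed to 0.227 to 3.16 CPM in KO and 4.43 to 12.0 CPM in control kidneys, and the 2 that could be tested, Ckm and Acta1, had log2 fold changes of -3.47 and -2.19 without overlap of the groups (edgeR adjusted p = 0.097 and 0.21). None of the 6 markers was at 0 in every kidney. The 8 markers of white and brown adipocytes summed to 105 to 230 CPM in KO and 124 to 188 CPM in control kidneys. Of the 7 that could be tested, 6 were lower in KO kidneys and 1 was higher (median log2 fold change -0.75, lowest edgeR adjusted p = 0.51). The part of muscle or adipocyte RNA in the level of Fabp3 was not tested. The exons of Fabp3 also overlap those of Zcchc17 on the other strand. Of its 50-base stretches, 37.3% are shared with other genes, among them Zcchc17 and Fabp3-ps1, so that part of its reads may not have been counted. Cd36, the fatty acid translocase, had a log2 fold change of 0.01 with a standard error of 0.31, and its KO kidneys ranged from 186 to 463 CPM.

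Of the 11 peroxisomal genes, 10 had a log2 fold change below 0 in the Cxcl12 cohort, with a median of -0.16, equal to that of the mitochondrial genes to 2 decimals. Acox2, the oxidase of branched chains and bile acid intermediates, was lowest with -0.39 (edgeR adjusted p = 0.42), and Acaa1a, a thiolase, had -0.21 with a standard error of 0.096 (edgeR adjusted p = 0.38). Acaa1a shares 17.1% of its 50-base stretches with other genes, among them Acaa1b and Myd88. For Acaa1b the share is 39.6%, and among the mitochondrial genes it is 26.9% for Acadvl and 17.3% for Acad10. Part of the reads of these genes may therefore not have been counted. Cat was at 814, 800, 557, 807 and 738 CPM in KO and at 843, 781 and 839 CPM in control kidneys. The groups overlapped, KO kidney 3 lay far below the rest, and the log2 fold change was -0.15 (edgeR adjusted p = 0.65). Ehhadh went the other way with 1550, 954, 603, 1440 and 1040 CPM in KO and 1390, 644 and 978 CPM in controls. Both groups spanned the same range, and its log2 fold change of 0.15 had a standard error of 0.30. Acsm2 was at 2230, 2120, 1910, 2010 and 2510 CPM in KO and at 1640, 1870 and 2930 CPM in controls, with equal means of 2150 CPM. Crot, which makes carnitine esters inside the peroxisome for export, had -0.02, and Pex11a, which drives the division of peroxisomes, had -0.16.

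In the Myc cohort, too, most of the genes were somewhat lower in KO kidneys, and none passed the test across all genes. Of 39 genes tested, 32 had a log2 fold change below 0, and 50.1% of all 14936 genes did. The median was -0.13, which is 8.52% lower, against -0.001 over all genes tested. edgeR's test called 0 of the 39 genes and 1.65% of all genes, of which 193 were lower (1.29%) and 53 higher (0.355%). At an unadjusted p under 0.05 there were 8 of the 39 (Pex11a, Slc25a20, Decr2, Eci1, Decr1, Hsd17b4, Cpt2 and Cpt1b) and 21.9% of all genes. All but Cpt1b were lower. DESeq2 called 5, all lower (Eci1, Decr2, Decr1, Pex11a and Slc25a20), and 7.63% of all genes. In 2 genes, Slc25a20 and Decr2, all KO kidneys lay below all controls, which was so for 3.92% of all genes, and in none did they all lie above, which was so for 2.05%. Of the proximal tubule markers 3 of 12 were lower, with a median log2 fold change of 0.12, and their sum was 4860 to 8130 CPM in KO and 5370 to 6880 CPM in control kidneys. The neutrophil markers summed to 122 to 236 CPM in KO and 38.4 to 203 CPM in control kidneys. All 4 endothelial markers were higher in KO kidneys (median log2 fold change 0.36), as were all 4 podocyte markers (0.29) and 5 of 6 collecting duct markers (0.20). Of these 4, 4 and 6 markers, 2 each had an unadjusted p under 0.05 and none was at 0 in every kidney. Their sums were 551 to 770, 493 to 613 and 614 to 936 CPM in KO and 395 to 671, 322 to 554 and 492 to 1180 CPM in control kidneys. The part of these cell types in the levels of the 39 genes was not tested. The median of the 39 genes was -0.058 when the 4 kidneys with under 5% unmapped reads were left out, and -0.25 when only these 4 were compared, a comparison added after the data had been seen. In the first case 25 genes were lower and in the second 36.

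Pex11a, which lies on chromosome 7 from 79735957 to 79743131, showed the largest difference of the peroxisomal genes. It was given kidney by kidney after its values had been seen. It was at 75.5, 98.1, 90.3, 72.5 and 76.9 CPM in the 5 Myc KO kidneys and at 178, 143, 88.7, 167 and 102 CPM in the 5 controls. The KO kidneys lay close together, the controls were spread widely, and 2 KO kidneys overlapped the lowest control. The log2 fold change was -0.71 ± 0.18 (SE; edgeR adjusted p = 0.065 and DESeq2 adjusted p = 0.005). Without Myc control 3 it was -0.84 (edgeR adjusted p = 0.019), and edgeR also called it without the filter on low counts, in one fit over all 18 kidneys and with a term for the kidneys with under 5% unmapped reads (adjusted p = 0.042, 0.043 and 0.044). Of 10 fits that left out a kidney, 9 did not call it, with values from -0.84 to -0.6 over all 10. Nor was it called with limma-voom, other scaling, the stranded column, the replicate block, or without the kidneys with under 5% unmapped reads. In the Cxcl12 cohort Pex11a had a log2 fold change of -0.16, and its difference between the cohorts was 0.56 (standard error 0.29, edgeR adjusted p = 0.49).

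Decr2, the peroxisomal 2,4-dienoyl-CoA reductase needed for unsaturated chains, lies on chromosome 17 from 26081208 to 26090337. It was at 43.2, 50.9, 46.8, 43.6 and 51.3 CPM in Myc KO and at 62.1, 51.8, 59.2, 77.1 and 55.1 CPM in Myc control kidneys. The groups only just did not overlap, and the log2 fold change was -0.37 ± 0.10 (SE; edgeR adjusted p = 0.093). The mitochondrial enzymes for unsaturated chains had values of the same size. Decr1, the mitochondrial reductase, had -0.35 (edgeR adjusted p = 0.12) and Eci1, the enoyl-CoA isomerase, -0.41 (edgeR adjusted p = 0.11, and 0.032 with the term for unmapped reads), with overlap of the groups. Eci2, an isomerase of both organelles, had -0.13. In the Cxcl12 cohort Decr2 was at 75.5, 64.8, 54.5, 52.7 and 44.9 CPM in KO and at 65.3, 61.1 and 70.4 CPM in controls, with -0.17.

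Slc25a20, described here after its values had been seen, was at 73.0, 73.7, 64.8, 61.3 and 63.8 CPM in Myc KO and at 87.3, 80.7, 76.9, 86.2 and 77.1 CPM in Myc control kidneys. The groups did not overlap, and the log2 fold change was -0.28 ± 0.075 (SE; edgeR adjusted p = 0.082, and 0.042 with the term for unmapped reads). The palmitoyltransferases on either side of it had unlike values, a difference that was not tested. Cpt2, of the inner membrane, had -0.34 (edgeR adjusted p = 0.18), and Cpt1a, of the outer membrane, had 0.05 (edgeR adjusted p = 0.78). Cpt1b had 0.69, at 3 to 28 reads per kidney over the series (edgeR adjusted p = 0.22). The 6 striated muscle markers summed to 0.503 to 4.96 CPM in Myc KO and 0.193 to 1.77 CPM in Myc control kidneys. The 8 markers of white and brown adipocytes summed to 162 to 446 CPM in Myc KO and 110 to 277 CPM in Myc control kidneys. Of these 8, 6 could be tested, and all 6 were higher in KO kidneys (median log2 fold change 0.47, lowest edgeR adjusted p = 0.3). The part of muscle or adipocyte RNA in the level of Cpt1b was not tested.

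Among the other mitochondrial genes of the Myc cohort, log2 fold changes ran from -0.24 for Hadh and for Acads, the short-chain dehydrogenase, to 0.06 for Acsm3, and Acadl again was close to 0 with -0.05. Acsm2 was at 2540, 2340, 2000, 1910 and 1550 CPM in Myc KO and at 2310, 2210, 1780, 2060 and 1660 CPM in control kidneys, with complete overlap (log2 fold change 0.05, edgeR adjusted p = 0.87). Of the peroxisomal genes, Cat was at 609, 654, 558, 465 and 448 CPM in KO and at 718, 633, 523, 715 and 522 CPM in control kidneys (log2 fold change -0.18, edgeR adjusted p = 0.43). The 2 lowest kidneys for Cat were KO kidneys, but the others lay among the controls. Ehhadh was at 771, 486, 595, 334 and 418 CPM in KO and at 768, 736, 674, 281 and 412 CPM in control kidneys (log2 fold change -0.14, edgeR adjusted p = 0.80). Acox3, which also oxidizes branched chains, was the peroxisomal gene with the highest value, 0.20 (edgeR adjusted p = 0.36). Cd36 had -0.50 (standard error 0.25, edgeR adjusted p = 0.26), with 202 to 288 CPM in KO and 211 to 621 CPM in control kidneys.

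**Figure D3:**
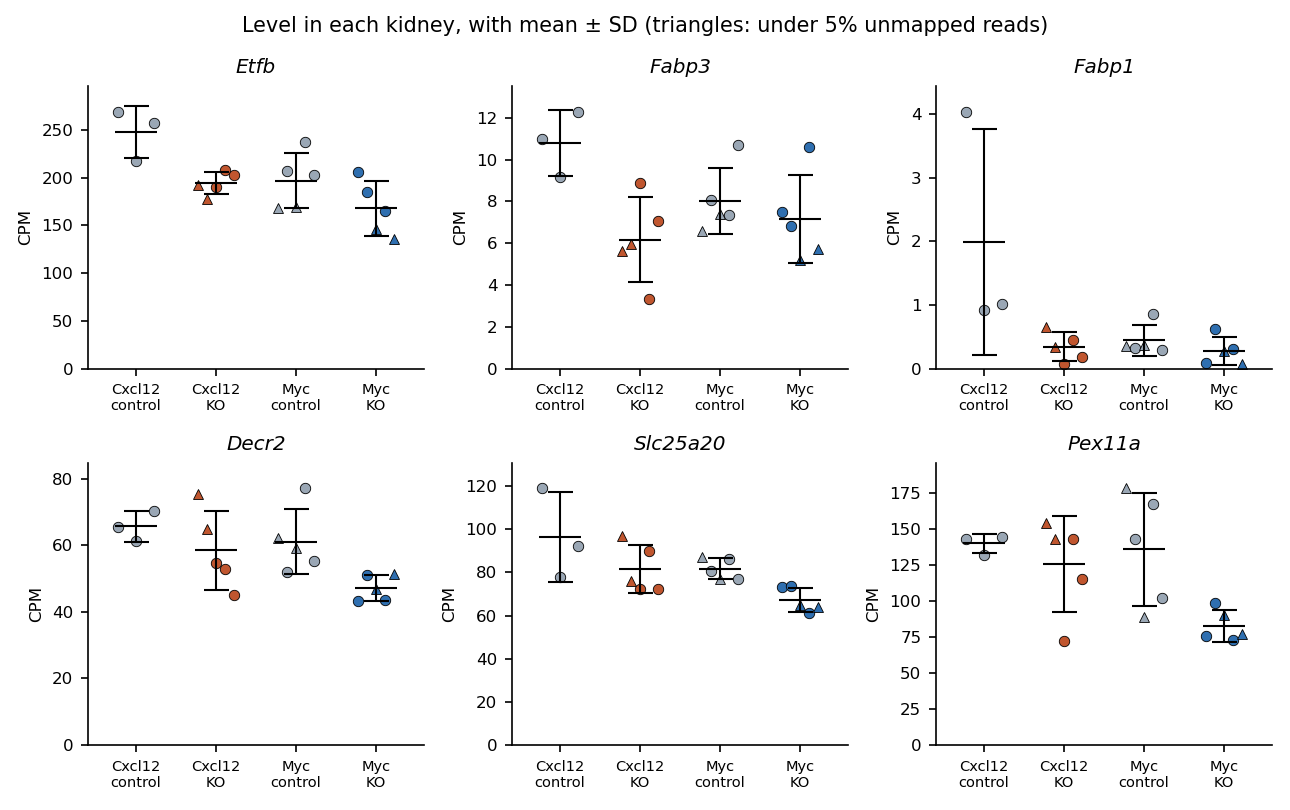
CPM of 6 genes in each kidney by group, with the mean and SD of each group. Triangles mark kidneys with under 5% unmapped reads. Etfb, Fabp3 and Fabp1 lay lower in all Cxcl12 KO than in all Cxcl12 control kidneys, Decr2 and Slc25a20 in all Myc KO than in all Myc control kidneys, and Pex11a overlapped in both cohorts.

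The mitochondrial and peroxisomal genes moved together from kidney to kidney. As a score, the log2 CPM of each gene was set relative to the mean of the control kidneys of its cohort and averaged over the class. The mitochondrial score was 0.007, -0.22, -0.33, -0.12 and -0.15 in the 5 Cxcl12 KO kidneys and 0.034, -0.18 and 0.15 in the controls. The peroxisomal score was 0.082, -0.14, -0.51, -0.068 and -0.12 against 0.081, -0.19 and 0.11. In both classes KO kidneys overlapped control 2, and KO kidney 3 was lowest. In KO kidney 3, 22 of 22 mitochondrial and 11 of 11 peroxisomal genes lay below the control mean, and it held the lowest value of the cohort for 22 of the 40 genes. The highest value lay in Cxcl12 control 1 for 15 genes and in Cxcl12 control 3 for 15. The mitochondrial score of the Myc KO kidneys was 0.051, 0.074, -0.19, -0.17 and -0.27, and that of the Myc controls 0.011, -0.016, -0.14, 0.21 and -0.066. The peroxisomal score was 0.073, 0.012, -0.21, -0.32 and -0.44 in Myc KO and 0.23, 0.050, -0.20, 0.13 and -0.21 in Myc control kidneys. Myc KO kidneys 1 and 2 lay among the controls in both classes, and KO kidneys 3, 4 and 5 lay below the lowest control. Myc control 4 held the highest value for 18 genes and Myc KO 5 the lowest for 20. The same score over the 12 proximal tubule markers was -0.16, -0.22, -0.43, -0.27 and -0.23 in Cxcl12 KO and -0.16, -0.026 and 0.19 in Cxcl12 control kidneys. It was 0.42, 0.38, -0.12, 0.18 and -0.245 in Myc KO and 0.080, 0.17, -0.11, 0.066 and -0.21 in Myc control kidneys. How far the scores of the 2 classes follow these markers was not tested.

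The classes were then set against each other. Relative to a control mean of 0, the mitochondrial minus the peroxisomal score had a mean of -0.013 in Cxcl12 KO kidneys (SD 0.11, n = 5), and the controls had an SD of 0.046 (n = 3). Its mean was 0.075 in Myc KO kidneys (SD 0.081, n = 5), where the controls had an SD of 0.14 (n = 5). Neither mean exceeded the SD of its KO group, which describes the spread between kidneys and not the error of the mean. No test was made of a score over chosen genes. The median SD within groups was 0.22 on the log2 scale for the mitochondrial and 0.24 for the peroxisomal genes, and 0.22 for all genes tested. The median log2 fold change of the mitochondrial genes was -0.11 in the Myc cohort, with 17 of 22 below 0, and that of the peroxisomal genes -0.16, with 9 of 11 below 0. Without the kidneys with under 5% unmapped reads these medians were -0.083 and -0.019.

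**Figure D4:**
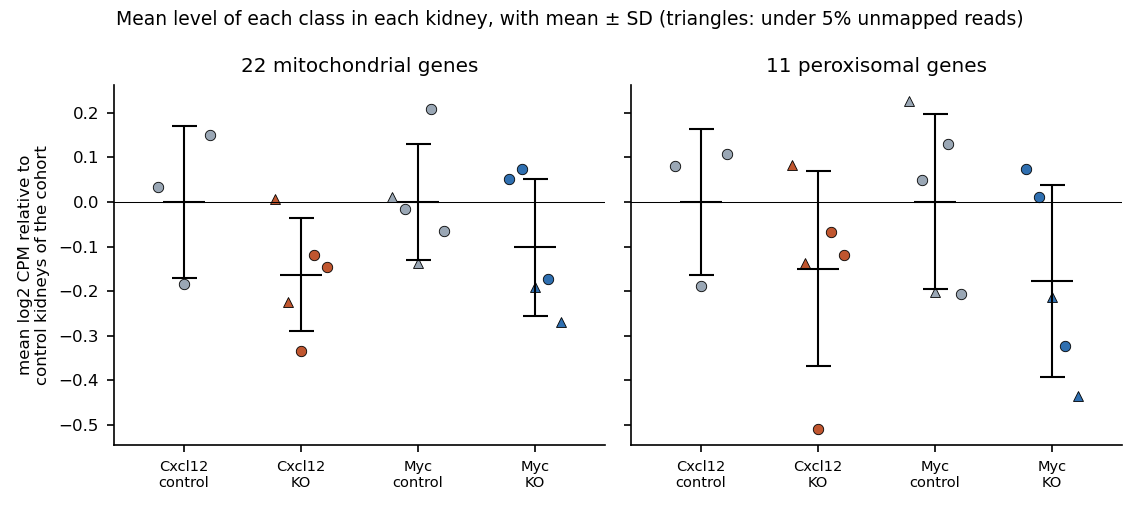
Mean log2 CPM of the 22 mitochondrial and the 11 peroxisomal genes in each kidney, relative to the control kidneys of the same cohort, with the mean and SD of each group. Triangles mark kidneys with under 5% unmapped reads. KO and control kidneys overlapped in both cohorts and both classes, and Cxcl12 KO kidney 3 was lowest with -0.33 and -0.51.

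Whether the KO effect differed between the cohorts was tested by the interaction over all 18 kidneys. edgeR's test called 0 of the 40 genes and 0.0692% of all 15903 genes. At an unadjusted p under 0.05 there was 1 (Acox3) and 11.4% of all genes, and DESeq2 called 0 of the 40 and 1.97% of all genes. The differences, Cxcl12 minus Myc, were below 0 for 21 genes and above 0 for 19, against 49.0% of all genes below 0, with a median of -0.009. For Etfb the difference was -0.12 with a standard error of 0.17, and for Decr2 0.21 with a standard error of 0.19, and neither effect was shown to differ between the cohorts.

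The control kidneys of the cohorts also differed in level. Myc controls were lower than Cxcl12 controls in 39 of 40 genes, against 50.7% of all 15903 genes, with a median log2 fold change of -0.24, which is 15.5% lower. Median values were -0.24 for the mitochondrial and -0.27 for the peroxisomal genes. edgeR's test called 0 of the 40 genes and 1.99% of all genes (0.868% lower and 1.12% higher), 11 of the 40 had an unadjusted p under 0.05 against 17.7% of all genes, and DESeq2 called 2, Fabp1 and Acsl1, and 4.99% of all genes. In 3 genes (Acadm, Cat and Fabp1) all Myc controls lay below all Cxcl12 controls, which was so for 5.88% of all genes, and in none were they all higher, which was so for 6.23%. Fabp1 had the lowest value, -2.18 (edgeR adjusted p = 0.055), and without Myc control 4 it was -2.53 (edgeR adjusted p = 0.029). Acsl1, the main long-chain acyl-CoA synthetase, was at 292, 186, 237, 197 and 216 CPM in Myc control and at 431, 264 and 294 CPM in Cxcl12 control kidneys (log2 fold change -0.55, edgeR adjusted p = 0.072). Without the kidneys with under 5% unmapped reads it was -0.73 (edgeR adjusted p = 0.039), and without Myc control 1 it was -0.66 (edgeR adjusted p = 0.02). When Cxcl12 control 1, the highest kidney for both Fabp1 and Acsl1, was left out, edgeR called neither gene. Of 18 fits that left out a kidney, 12 called 0 of the 40 genes. Acadm, the medium-chain dehydrogenase, was at 344, 371, 272, 357 and 274 CPM against 424, 407 and 540 CPM (log2 fold change -0.50, edgeR adjusted p = 0.12). Both Acsl1 and Acadm were given kidney by kidney after their values had been seen. Proximal tubule markers were lower too, 11 of 12 with a median of -0.30, and among them Lrp2, the endocytic receptor megalin, fell by 0.63 on the log2 scale (edgeR adjusted p = 0.038). The injured tubule marker Lcn2 rose by 1.14 (edgeR adjusted p = 0.017), and the neutrophil markers summed to 38.4 to 203 CPM in Myc and 15.9 to 23.1 CPM in Cxcl12 controls. Line, litter and day of surgery cannot be told apart from the floxed gene, and the same 3 Cxcl12 controls enter the Cxcl12 comparison.

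Of the other genes of the pathway edgeR called 0 in either KO comparison. Of 15 peroxins, which build the organelle, 13 were lower in Cxcl12 KO and 14 in Myc KO kidneys, with medians of -0.096 and -0.13. Of 31 further peroxisomal enzymes and transporters, 28 were lower in Cxcl12 KO with a median of -0.19, but 17 in Myc KO with a median of -0.024. Of 20 further mitochondrial acyl-CoA enzymes, 17 and 15 were lower, with medians of -0.17 and -0.11. Long-chain synthetases and transporters outside the 40 genes had medians of 0.002 and -0.016 over 12 genes. The 17 genes of fatty acid synthesis, listed for contrast, had medians of -0.19 and 0.056. At an unadjusted p under 0.05 these 5 lists held 2, 9, 6, 2 and 4 genes in the Cxcl12 cohort, where 13.0% of all genes passed, and 3, 7, 3, 1 and 2 in the Myc cohort, where 21.9% did. Of all genes tested, 49.8% and 50.1% were lower. Between the 2 sets of controls, where 0.868% of all genes were called lower, 2 of the 31 peroxisomal genes fell in Myc controls, Hacl1 by 1.2 and Acot4 by 0.72 on the log2 scale (edgeR adjusted p = 0.017 and 0.031). In the other lists Slc27a1, Hnf4a and Fasn fell and Acot9 rose between these controls (edgeR adjusted p = 0.02, 0.036, 0.029 and 0.021). Hacl1, which cleaves branched acyl-CoA, had -1.03 in the Cxcl12 cohort without overlap of the groups (edgeR adjusted p = 0.094).

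Cyp4a14 and Cyp4a10, fatty acid hydroxylases known as PPAR targets, were far higher in 1 Cxcl12 control kidney than in the others. The 3 targets described here were chosen after their values had been seen. Cyp4a14 was at 290, 105, 55.9, 227 and 76.2 CPM in Cxcl12 KO and at 851, 129 and 73.6 CPM in Cxcl12 control kidneys. Control 1 stood far above every other kidney, and the KO kidneys lay on both sides of the other controls. Cyp4a14 in the Myc cohort was at 67.1, 76.4, 33.1, 18.6 and 73.2 CPM in KO and at 164, 43.9, 71.6, 101 and 62.4 CPM in control kidneys, with overlap. Cyp4a10 was also highest in Cxcl12 control 1, with 578 CPM against 75.5 to 296 CPM elsewhere. Control 1 held the highest values for Acsl1 and Fabp1 as well. Pdk4, a kinase that turns off glucose oxidation, followed another order, with 1260, 653, 380, 1220 and 990 CPM in Cxcl12 KO and 524, 338 and 677 CPM in Cxcl12 control kidneys (log2 fold change 0.81, edgeR adjusted p = 0.37). Over the 23 PPAR targets outside the 40 genes, 15 were lower in Cxcl12 KO and 16 in Myc KO kidneys, with medians of -0.24 and -0.098, and edgeR called 0 in both. At an unadjusted p under 0.05 there were 5 of the 23 in each, against 13.0% and 21.9% of all genes. Of the receptors and partners, Ppara had -0.30 in Cxcl12 KO and -0.12 in Myc KO kidneys (edgeR adjusted p = 0.47 and 0.65), and Ppargc1a, a coactivator of mitochondrial genes, had -0.34 and 0.08 (edgeR adjusted p = 0.33 and 0.62).

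**Figure D5:**
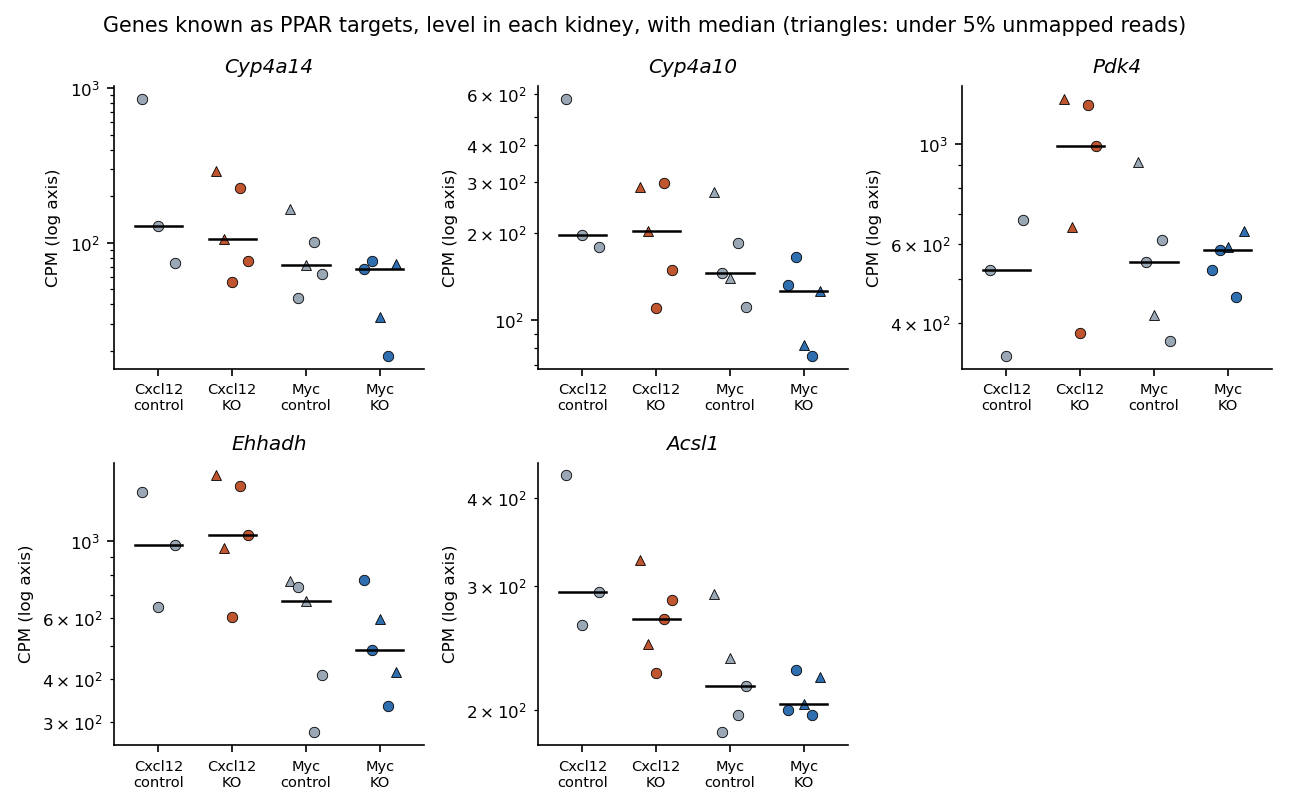
CPM of 5 genes known as PPAR targets in each kidney by group, on a log axis, with the median of each group as a line. Triangles mark kidneys with under 5% unmapped reads. Cxcl12 control kidney 1 was highest for Cyp4a14 (851), Cyp4a10 (578) and Acsl1 (431), but not for Pdk4 or Ehhadh.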

How the data were processed

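RNA was sequenced from 18 whole kidneys. The authors trimmed reads with Trimmomatic 0.32, aligned them to GRCm38 with STAR 2.4.0 and deposited raw counts of uniquely placed reads per Ensembl gene, of which the unstranded column was used here. In this column reads over exons of more than 1 gene are set apart as ambiguous, so overlap with an antisense partner can lower a count. Symbols came from GENCODE M21 and matched 45143 of 45706 identifiers. The 40 genes, the other lists and the tests were chosen with earlier results of these data known. Within each cohort, genes were filtered (filterByExpr), scaled by TMM and tested with edgeR 4.0.16 (quasi-likelihood, Benjamini-Hochberg over all genes tested, threshold 0.05) in R 4.3.3. The difference between the KO effects and the comparison of controls used one fit over 18 kidneys. The comparison of controls shares its kidneys with both KO comparisons. Alternatives were DESeq2 1.42.0, limma-voom (limma 3.58.1), other scaling, no filter, a stranded column, a replicate block, handling of the kidneys with under 5% unmapped reads, and leaving out each kidney. The study names ComBat but no batch, so none was removed. Genes were shown kidney by kidney if called in any comparison, if the groups of a cohort did not overlap with a log2 fold change of at least 0.3 in size, or if among the 3 highest per kilobase. Others are said to be chosen after their values were seen. Depth was 12918220 to 29749500 reads on genes. The tests were checked on simulated counts with the same dispersion for every gene and larger changes than those of most of the 40 genes. The check does not cover changes as small as these.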

Additional observations from a re-analysis of the deposited data

Results flagged for a closer look

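In 126 groups of 5 kidneys the highest and lowest kidney were compared with the rest by Dixon's test, and 5 stood apart, where chance alone gives about 5% of groups. Cpt1b was lowest in Myc KO 1 with 0.712 CPM, and the other Myc KO kidneys lay between 0.993 and 1.1 CPM. Acadl was lowest in Myc control 5 with 352 CPM, against 391 to 407 CPM in the other controls. Hadhb was highest in Myc KO 5 with 24.5 CPM, against 20.3 to 21.4 CPM. Acsm3 was highest in Myc control 2 with 257 CPM, against 152 to 179 CPM, and 34.0% of its 50-base stretches are shared with other genes, among them Eri2. Fabp1 was highest in Myc control 4 with 0.862 CPM, against 0.297 to 0.372 CPM.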

How the results depend on the processing

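Over all alternatives other than leaving out a kidney, 941 of 1011 values were counted as unchanged, 31 moved, 13 newly passed the threshold and 26 turned in sign. For the log2 fold change of a gene, unchanged meant the same direction and side of the threshold. A count had to stay within a set factor, and a median within the SD between kidneys of a group, whatever its sign. A log2 fold change that rounded to 0 could not count as turned. The cause of these changes was not tested. The number of all genes called in the Cxcl12 cohort, 0 in the analysis reported, was 214 without a filter, 355 with DESeq2, 9 with the stranded column, 25 in one fit over 18 kidneys, 123 with a term for the kidneys with under 5% unmapped reads and 80 without these kidneys. For Myc, with 246, it was 1139 with DESeq2, 683 in one fit, 954 with the term, 8 without these kidneys and 0 with only these kidneys, the last being chosen after seeing the data. For the difference between the KO effects, with 11, it was 314 with DESeq2, 3 with limma-voom, 4 with the stranded column, 133 with the term and 44 without these kidneys, and for the controls, with 316, it was 794 with DESeq2. Of the 40 genes, those called in the Cxcl12 cohort were 1 without a filter and 2 with DESeq2. For Myc they were 1 without a filter, 5 with DESeq2, 1 in one fit and 3 with the term. Between controls they were 1 without a filter, 2 with DESeq2, 1 with the term and 1 without the kidneys with under 5% unmapped reads. The median of the 3 genes of uptake and binding was -0.457 in the Cxcl12 cohort, -0.089 for the difference and -0.113 between controls with the stranded column.

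Deviations of kidneys with the same replicate number correlated between -0.0321 and 0.134 for Cxcl12 and between -0.211 and 0.402 for Myc. Those with unlike numbers correlated between -0.131 and 0.191 and between -0.522 and 0.479. No pairing was read from the numbers, but so few pairs cannot exclude it. With the replicate block 0 genes were called for Cxcl12 and 18 for Myc, and 0 of the 40 genes in either cohort. With the replicate block Acsm3 turned to 0.1, Cpt1a to -0.08, Cpt1b to 0.02 and Cd36 to -0.09 in the Cxcl12 cohort.

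Other log2 fold changes also turned in sign. In the Cxcl12 cohort they were Acsm3 with limma-voom (0.06), Crot with the stranded column (0.01), and Cd36 (-0.1 and -0.1), Acadl (-0.01 and -0.01) and Acads (0.02 and 0.01) with the term for unmapped reads and without these kidneys. In the Myc cohort they were, without these kidneys, Acad10 (0.02), Acsm1 (0.08), Acox2 (0.09), Ehhadh (0.16), Acaa1b (0.01), Crat (0.05) and Acsl1 (0.07), and with only these kidneys Cpt1a (-0.13), Acadl (0.06), Acaa2 (-0.01), Acsm2 (-0.2), Acsm3 (-0.21), Acox3 (-0.11) and Acaa1a (-0.14). Of these, Acaa1b (-0.23), Acox3 (0.20), Acox2 (-0.16) and Ehhadh (-0.14) had values beyond the median of the 39 genes in size in the analysis reported.

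When each kidney was left out in turn, all genes called ranged from 0 to 15 in the Cxcl12 cohort, from 21 to 877 in the Myc cohort, from 1 to 75 for the difference and from 49 to 611 between controls. Of the 40 genes, 0 to 0, 0 to 1, 0 to 0 and 0 to 1 were called. The median of the mitochondrial genes lay within -0.258 to -0.119 for Cxcl12 KO and within -0.151 to -0.066 for Myc KO. That of the peroxisomal genes lay within -0.225 to -0.078, highest without Cxcl12 KO 3, and within -0.297 to -0.037, lowest without Myc KO 1 and highest without Myc control 1. For the difference, the mitochondrial minus the peroxisomal median ranged from -0.169 to 0.001 and the median for uptake and binding from -0.813 to -0.467. Signs turned in the Cxcl12 cohort for Cpt1a (-0.06 to 0.17), Cpt2 (-0.15 to 0.04), Acadl (-0.03 to 0.15), Acads (-0.19 to 0.07), Hadhb (-0.24 to 0.04), Acsm1 (-0.14 to 0.01), Acsm3 (-0.41 to 0.53), Ehhadh (-0.09 to 0.46), Acaa1b (-0.44 to 0.01), Crot (-0.12 to 0.07), Abcd3 (-0.29 to 0.03) and Cd36 (-0.24 to 0.42). For Myc they turned for Acadl (-0.08 to 0.01), Acad10 (-0.15 to 0.05), Acaa2 (-0.01 to 0.12), Acsm1 (-0.14 to 0.02), Acsm2 (-0.04 to 0.13), Acsm3 (-0.08 to 0.21), Acaa1a (-0.06 to 0.11) and Acsl1 (-0.16 to 0.01). Acsm2 in the Cxcl12 cohort (-0.16 to 0.28) and Crot in the Myc cohort (-0.05 to 0.12) also took both signs. Both rounded to 0 in the analysis reported.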
